A study of Homo sapiens with 6 samples.

Results

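HOX genes encode the homeodomain transcription factors that give cells their position along the body axis, and their messenger RNAs were followed here in NGP, a human neuroblastoma cell line. Members were chosen by name alone, as every entry of the deposited gene table whose symbol is HOX followed by A, B, C or D and a number, with antisense genes left out. The rule found 39 of 19868 entries, 11 from the HOXA cluster, 10 from HOXB, 9 from HOXC and 9 from HOXD. RNA sequencing covered 3 Control libraries and 3 libraries with knockdown of CAMKV (CAMKV-KD), a gene for a pseudokinase of the calmodulin kinase family that neurons carry. The sample descriptions call the groups sh-control and sh-CAMKV, and all 6 libraries came from the same line, grown in RPMI-1640 with 20% fetal bovine serum. The comparison asks what changed in the transcripts of the knockdown cells. It rests on 1 cell line, and the labels state neither the number of hairpins used nor whether libraries of a group were separate cultures, so p-values speak only of the scatter among these libraries, and that scatter may be technical.

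In mammals the HOX genes lie in 4 clusters on separate chromosomes, and genes at the same place in each cluster form 13 paralogue groups. Genes at the 3′ end of a cluster (low numbers) are used early and toward the head, and those at the 5′ end (high numbers) later and toward the tail. Sympathetic neurons, the lineage from which neuroblastoma arises, come from trunk neural crest and keep HOX transcripts that reflect that position. Trithorax proteins such as KMT2A hold active clusters open, Polycomb complexes keep silent ones closed, retinoic acid switches on 3′ members, and TALE homeodomain proteins (PBX, MEIS and PKNOX) bind DNA beside the HOX proteins.

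CAMKV itself had 83.9, 77.3 and 84.6 CPM (counts relative to library totals that were adjusted by TMM, the trimmed mean of M values) in Control and 25.4, 23.2 and 25.4 in CAMKV-KD. The knockdown libraries kept 30.1% of the Control level (log2 fold change -1.73 ± 0.065, standard error (SE), adjusted p = 0.000119 by edgeR's quasi-likelihood test with Benjamini-Hochberg adjustment). Library totals ran from 20238281 to 24701564 counts. All 14 adrenergic neuroblastoma markers listed for the label check passed the low-count filter, and 2 were called (adjusted p below 0.05) higher and 4 lower in CAMKV-KD, a share of 42.9% beside 36.3% of all 13366 genes tested. SOX10 of Schwann cells, CD3E and HBB of blood and KRT18 of epithelium had no count in any library. Other members of these lists were counted. Tested were 4 of 8 Schwann and glial, 2 of 9 blood and endothelial and 4 of 7 epithelial markers. In the Schwann and glial list 1 was called higher and 1 lower, and in the blood and endothelial list none. Of the epithelial markers, MUC1 was called higher (log2 fold change 0.84 ± 0.22, adjusted p = 0.0331 by edgeR). Of 9 fibroblast and stromal markers FAP had none, while the other 8 were tested, with 4 called higher and 1 lower. COL1A1, called higher, stood at 145.5 CPM in Control and 219.2 in CAMKV-KD. PDGFRB, called lower, stood at 73.4 and 49.8 CPM. PDGFRA, the highest member (409.5 and 390.9 CPM), DCN (5.77 and 2.95) and COL1A2 (0.64 and 0.37) were not called, and their means were lower in CAMKV-KD. Summed marker levels ran from 199 to 255 CPM in Control and from 120 to 141 in CAMKV-KD for the Schwann and glial list, and from 710 to 891 and from 929 to 993 for the fibroblast list. The lower Schwann and glial sum came mostly from L1CAM, its largest part in every library (167.8 CPM in Control and 71.1 in CAMKV-KD). PMP22, the next highest member, went the other way and was called higher (49.9 and 58.1 CPM). The sums ran from 1.20 to 1.84 and from 1.09 to 1.79 CPM for the blood and endothelial list. For the epithelial list they ran from 3.63 to 5.05 and from 5.41 to 9.45. The part of these shifts in the HOX results was not tested. In such bulk libraries, fewer cells using a gene and less RNA per cell cannot be told apart.

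The regions just upstream of 4 members are shown as examples, and they do not stand for used or silent HOX genes in general. HOXD13 had the highest level per kb of exon, HOXA9 and the locus that HOXD3 shares with HOXD4 rose in CAMKV-KD, and HOXB1 had no count at all. HOXD3 itself was not called (log2 fold change -0.16 ± 0.46, adjusted p = 0.825 by edgeR). Its window lies inside the GENCODE span of HOXD3 (chromosome 2, 176136612 to 176173102). HOXD4 ends before that window, at 176153226, so the window is not the start of HOXD4. The HOXA9 window likewise lies inside the GENCODE span of its gene (chromosome 7, 27162435 to 27175180). That of HOXD13 ends short of the GENCODE start of HOXD13, at 176092891. Each window holds the 250 bases before the gene's RefSeq start (GRCh38.p14), read along the gene's own strand, with every CG dinucleotide, the site of DNA methylation, in capitals, and none of the 4 windows touches a GENCODE exon.
HOXD13, chr2:176092471-176092720, plus strand: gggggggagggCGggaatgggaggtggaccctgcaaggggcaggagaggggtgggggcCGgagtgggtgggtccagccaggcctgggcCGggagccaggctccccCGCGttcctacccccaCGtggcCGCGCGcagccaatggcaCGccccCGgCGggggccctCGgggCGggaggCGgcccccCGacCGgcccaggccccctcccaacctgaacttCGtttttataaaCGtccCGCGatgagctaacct
HOXA9, chr7:27165538-27165787, minus strand: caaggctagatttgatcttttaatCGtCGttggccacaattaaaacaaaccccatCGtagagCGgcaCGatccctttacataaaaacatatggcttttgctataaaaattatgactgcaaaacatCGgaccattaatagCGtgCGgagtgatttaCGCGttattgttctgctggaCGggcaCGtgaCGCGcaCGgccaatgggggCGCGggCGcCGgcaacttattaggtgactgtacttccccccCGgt
HOXD3, chr2:176157057-176157306, plus strand: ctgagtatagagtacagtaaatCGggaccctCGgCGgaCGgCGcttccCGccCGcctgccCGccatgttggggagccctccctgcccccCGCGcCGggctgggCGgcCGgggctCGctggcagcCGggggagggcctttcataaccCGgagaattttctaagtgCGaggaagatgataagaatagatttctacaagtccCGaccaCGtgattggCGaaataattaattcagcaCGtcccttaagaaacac
HOXB1, chr17:48531012-48531261, minus strand: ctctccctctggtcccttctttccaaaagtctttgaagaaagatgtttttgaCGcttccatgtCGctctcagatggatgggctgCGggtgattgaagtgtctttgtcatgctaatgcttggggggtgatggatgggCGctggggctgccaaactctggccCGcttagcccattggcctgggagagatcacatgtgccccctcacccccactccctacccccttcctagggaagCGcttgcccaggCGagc
The HOXD13 and HOXD3 windows hold 21 CG dinucleotides each, the HOXA9 window 20 and the HOXB1 window 7. Other tested members varied, with 4 in the HOXD4 window, 14 in that of HOXC4 and 28 in that of HOXD8. Unlike the windows shown, those of HOXD4 and HOXC4 lie with all 250 bases in GENCODE exons, and HOXC4 and HOXC5 have the same window. The RefSeq table used here matched 20 of the 39 members, in 26 distinct windows, with a median of 19.5 CG dinucleotides (quartiles 11.0 and 25.5). HOXB1 was the only HOXB gene among them. Over 34941 promoters of all genes the median was 11.0 (quartiles 3.0 and 23.0). The letters TGATNNAT, bound in vitro by PBX together with a HOX protein, were searched on both strands and were present in 3 HOX windows, those of HOXA2, HOXB1 and HOXD11, which is 11.5% of the 26, beside 6.49% of all promoters. These are matches of letters in these windows and no measure of binding.

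NGP cells carried transcripts of the HOXA, HOXC and HOXD clusters, while HOXB was close to empty. HOX counts summed to 7246, 6166 and 6410 in Control and to 6896, 6008 and 6772 in CAMKV-KD. Counts were divided by the length of all annotated exons of a gene (GENCODE release 29, GRCh38) so that genes could be compared. On that scale the clusters took 26.7% ± 2.16 (HOXA), 0.0746% ± 0.0647 (HOXB), 35.9% ± 1.60 (HOXC) and 37.4% ± 0.77 (HOXD) of the HOX level in Control (SD, n = 3). The same shares in CAMKV-KD were 29.9% ± 3.04, 0.185% ± 0.0967, 30.5% ± 0.99 and 39.3% ± 2.08. Divided by coding length instead, HOXC came before HOXD in both groups, with 39.4% against 31.2% in Control and 35.0% against 31.9% in CAMKV-KD. Per exon length, HOXC held 36.1%, 37.4% and 34.2% in Control and 30.9%, 29.4% and 31.3% in CAMKV-KD, with every CAMKV-KD library below every Control library. These cluster shares are a description and were not tested.

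Along the clusters, the 5′ paralogue groups 9 to 13 held 53.0% ± 0.66 of the HOX level in Control, groups 5 to 8 held 31.5% ± 0.30 and groups 1 to 4 held 15.5% ± 0.84 (SD, n = 3). The CAMKV-KD shares were 54.9% ± 3.13, 32.6% ± 4.35 and 12.5% ± 1.23. Group 13 was the highest single group with 23.7% ± 0.36 in Control, mostly HOXD13, followed by group 8 with 16.6% ± 1.18 and group 4 with 13.7% ± 0.83, mostly HOXC4. Divided by coding length, group 13 held 21.4% in Control, and groups 8 and 4 were close together with 17.0% and 16.9%. The ranges of groups were summed per exon length only, so the larger 5′ share was not checked by coding length. Groups 2 and 12 were barely used, with 0.0492% and 0.246% in Control. HOXD1 of group 1 was about as low as HOXD12 of group 12, at 0.271 CPM per kb of exon in Control. Neighbours on the chromosome could differ widely, as HOXD12 at 0.278 and HOXD13 at 23.7 CPM per kb of exon in Control did.

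**Figure D1:**
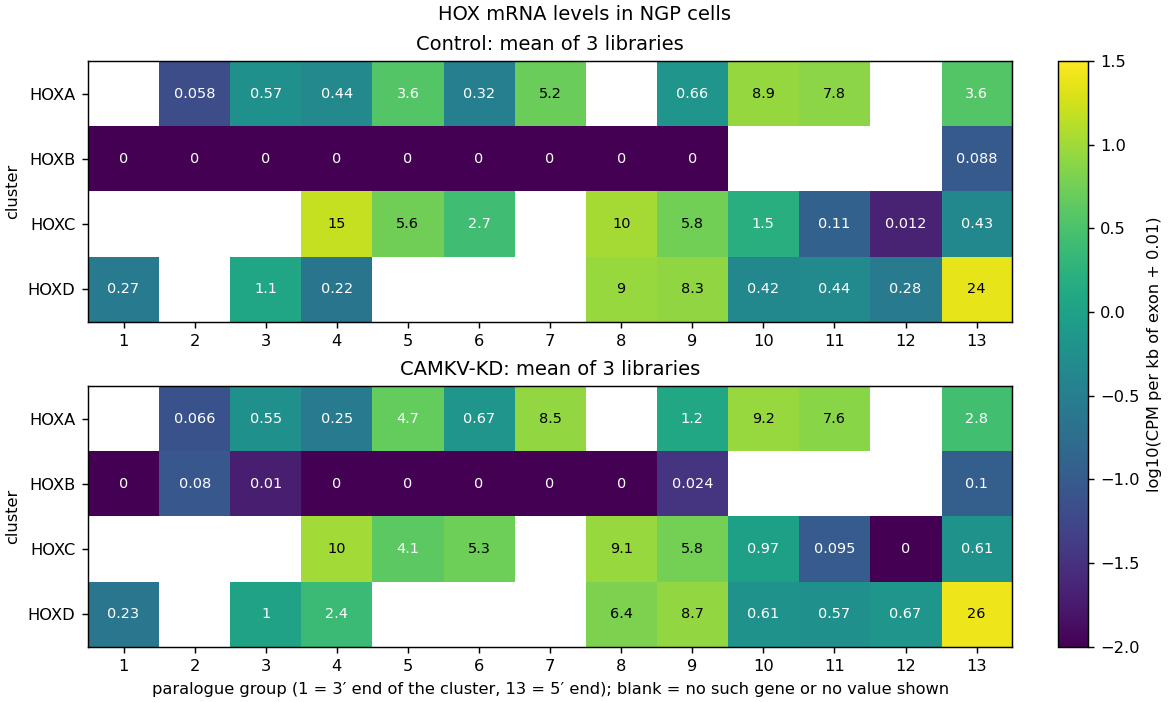
Mean level of each HOX gene in the 3 Control libraries (top) and the 3 CAMKV-KD libraries (bottom), with clusters as rows, paralogue groups as columns and blank cells where the human genome has no such gene or no value is shown; numbers are TMM-scaled CPM per kb of exon and the colour scale is log10 of that level plus 0.01. HOXD13 is brightest in both maps, HOXC4 is second, and the HOXB row is dark from group 1 to group 13.

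HOXD13, the last gene of its cluster, which patterns digits and the genital region, led the members with 23.7 ± 0.86 CPM per kb of exon in Control (SD, n = 3). HOXC4, a 3′ gene of cervical levels in the mouse, followed with 15.4 ± 0.94, HOXC8, which marks brachial and thoracic levels, with 10.5 ± 0.35, and HOXD8 with 8.98 ± 0.91. The Control libraries of HOXD13, HOXC4, HOXC8 and HOXD8 did not overlap from one gene to the next. HOXD8, HOXA10 (8.88), HOXD9 (8.34) and HOXA11 (7.83) overlapped between neighbours in this order, and HOXA11 stood clear of HOXC9 (5.76). From HOXC9 through HOXC5 (5.56), HOXA7 (5.23), HOXA5 (3.61) and HOXA13 (3.60) to HOXC6 (2.70), each gene overlapped with the next. Per kb of coding sequence HOXC4 came first with 53.0 and HOXD13 second with 51.5, so the order of these genes depended on the length used. The other 12 tested members lay between 0.0878 (HOXB13) and 1.54 (HOXC10) CPM per kb of exon in Control.

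The HOXB cluster (chromosome 17, 48528526 to 48729178) contributed 11, 10 and 0 counts to Control and 16, 7 and 24 to CAMKV-KD, summed over its 10 genes. HOXB1, HOXB4, HOXB5, HOXB6, HOXB7 and HOXB8, which run through the hindbrain and trunk part of the cluster, had no count in any of the 6 libraries. A count of 0 allows up to 3 counts, or 0.121 to 0.145 CPM depending on the library, and this limit covers counting error only. HOXB2 had 4 and 9 counts in CAMKV-KD 1 and 3, HOXB3 had 5 in CAMKV-KD 3, and HOXB9 had 2 in CAMKV-KD 2 and 2 in CAMKV-KD 3, with none in Control. HOXB13, a 5′ gene of the tail and prostate that lies apart from the rest of the cluster, had 11, 10 and 0 counts in Control and 12, 5 and 8 in CAMKV-KD. Its groups overlapped, and it was the only HOXB gene that passed the low-count filter (log2 fold change 0.25 ± 0.93, adjusted p = 0.865 by edgeR).

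Some genes that flank HOXB on the chromosome were used and others were not. CBX1, which encodes the heterochromatin protein HP1 beta, had 557 ± 16.3 CPM in Control, the autophagy receptor gene CALCOCO2 108.6 ± 3.21 and the sorting nexin gene SNX11 21.4 ± 1.91 (SD, n = 3). SKAP1, a T-cell adaptor gene next to HOXB1, had 1 count in Control 2 and 1 in CAMKV-KD 1, and PRAC1 and PRAC2, which sit near HOXB13, had none in any library. The stretch with few or no counts thus took in HOXB and its closest listed neighbours, while SNX11, CBX1 and CALCOCO2 had 422 counts or more in every library.

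Of the 39 members, 25 passed the low-count filter and were tested: 8 of HOXA, 1 of HOXB, 7 of HOXC and 9 of HOXD. Another 8 had some counts and did not pass, among them HOXA2, HOXA6, HOXB2, HOXB3, HOXB9, HOXC11 and HOXC12. Their counts in any library ran from 0 to 39, the highest being HOXA6 in CAMKV-KD 2, with HOXA2 between 2 and 6, HOXC11 between 4 and 11 and HOXC12 between 0 and 3. A gene was called at an adjusted p below 0.05 over all 13366 genes tested, of which 36.3% were called, 17.3% higher and 19.0% lower in CAMKV-KD. By that rule 7 of the 25 tested HOX members (28%) were called, 4 higher and 3 lower, a share not above the background. Among 9029 genes with mean counts in the range of these members, 32.6% were called. The median log2 fold change of the 25 was 0.048, and of all genes 0.0045.

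HOXA7, HOXA9, HOXC6 and HOXD4 rose, and HOXC4, HOXC10 and HOXD8 fell. The movements crossed clusters, and HOXC held genes of both directions. Library values did not overlap between groups in 12 of the 25 members, beside 52.8% of all genes tested. The 5 of these that were not called were HOXC5, HOXC8, HOXC13, HOXD12 and HOXD13.

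**Figure D2:**
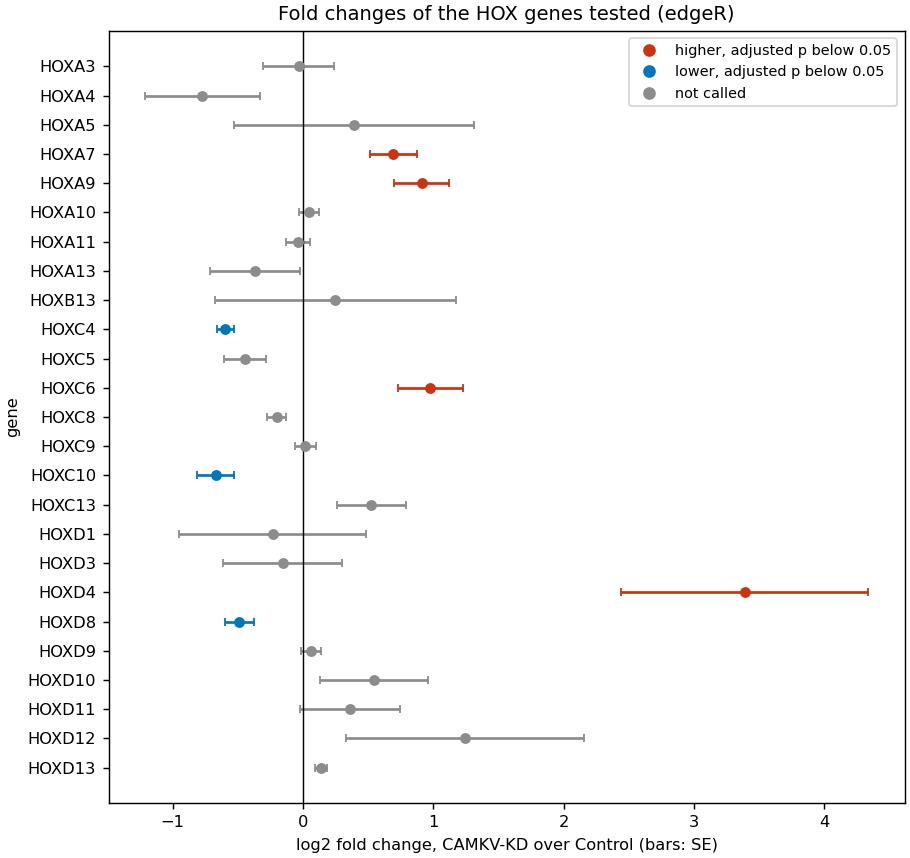
Log2 fold change of CAMKV-KD over Control for the 25 tested HOX genes in cluster order, from edgeR with bars of 1 SE, red and blue marking genes called higher and lower. HOXD4 lies farthest right at 3.39 with a wide bar, and HOXC4 at -0.60 has one of the narrowest.

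In the HOXC cluster (chromosome 12, 53938765 to 54056030) HOXC4 and HOXC10 fell and HOXC6 rose. HOXC4 had 44.6, 41.9 and 39.4 CPM in Control and 27.5, 27.3 and 28.5 in CAMKV-KD. All 3 knockdown libraries lay well below all 3 Control libraries (log2 fold change -0.60 ± 0.066, adjusted p = 0.00188 by edgeR), and HOXC4 alone of the 7 stayed called whichever library was left out (-0.64 to -0.55, adjusted p at most 0.0111). HOXC6, a gene of brachial spinal cord levels, had 11.4, 10.6 and 6.73 CPM in Control and 15.8, 18.3 and 22.5 in CAMKV-KD. Every CAMKV-KD library was above every Control library, about 1.97-fold on average (0.98 ± 0.25, adjusted p = 0.0299). Its call was lost without Control 2, CAMKV-KD 2 or CAMKV-KD 3, where the adjusted p reached 0.0831 and the log2 fold change stayed between 0.78 and 1.12. HOXC10, of lumbar levels, had 3.51, 3.35 and 3.90 CPM in Control and 2.46, 2.32 and 1.96 in CAMKV-KD, again without overlap (-0.67 ± 0.15, adjusted p = 0.0182). Its call was lost without Control 1, Control 3, CAMKV-KD 2 or CAMKV-KD 3 (-0.74 to -0.58, adjusted p up to 0.0577).

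The rest of the tested HOXC genes were not called. HOXC5, which neighbours HOXC4, had 9.83, 12.02 and 8.26 CPM in Control and 7.15, 7.12 and 7.85 in CAMKV-KD (log2 fold change -0.44 ± 0.16, adjusted p = 0.0864 by edgeR). Without Control 3, its lowest Control library, it was called (adjusted p = 0.0432). HOXC8 had 20.1, 19.1 and 20.3 CPM in Control and 16.3, 17.97 and 17.4 in CAMKV-KD (-0.20 ± 0.072, adjusted p = 0.0831), with no overlap between the groups. HOXC9, which sets thoracic motor neuron identity in the mouse, was the steadiest, with 9.67, 9.59 and 9.74 CPM in Control and 10.02, 9.54 and 9.81 in CAMKV-KD (0.018 ± 0.078, adjusted p = 0.881). HOXC13, a gene of hair and nail, had 33, 22 and 16 counts in Control and 37, 29 and 35 in CAMKV-KD (0.52 ± 0.26, adjusted p = 0.181).

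HOXC4, HOXC5, HOXC6, HOXC9 and HOXC10 carry a single locus identifier, given where StringTie merged overlapping transcripts, and HOXC4 shares 17.8% of its exon bases with HOXC5 and HOXC6. HOXC6 shares 15.7% with HOXC4, HOXC5 and HOXC9. Summed over the locus, the level was 78.8, 77.2 and 68.1 CPM in Control and 63.0, 64.4 and 70.8 in CAMKV-KD. The groups overlapped and the sum was not called (log2 fold change -0.18 ± 0.079, adjusted p = 0.140 by edgeR on counts summed per locus, an alternative added after the data were seen, which called 37.7% of 12512 loci). What differed was the division of the counts inside the locus. HOXC4 held 56.5%, 54.1% and 57.9% of them in Control and 43.7%, 42.3% and 40.4% in CAMKV-KD, while HOXC6 held 14.4%, 13.7% and 9.89% and then 25.1%, 28.3% and 31.8%. Neither gene's shares overlapped between groups (two-sided exact permutation p = 0.1 for each, the smallest that 3 against 3 libraries allow). HOXC5 and HOXC10 gave the same exact permutation p, and HOXC9 gave 0.2. HOXC4 and HOXC6 were picked for their calls in these same libraries, so this p adds no separate support. How the counting assigned reads of the shared exons is not given in the sources used here. A shift among the transcripts of this locus and a different assignment of shared reads therefore cannot be told apart.

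**Figure D3:**
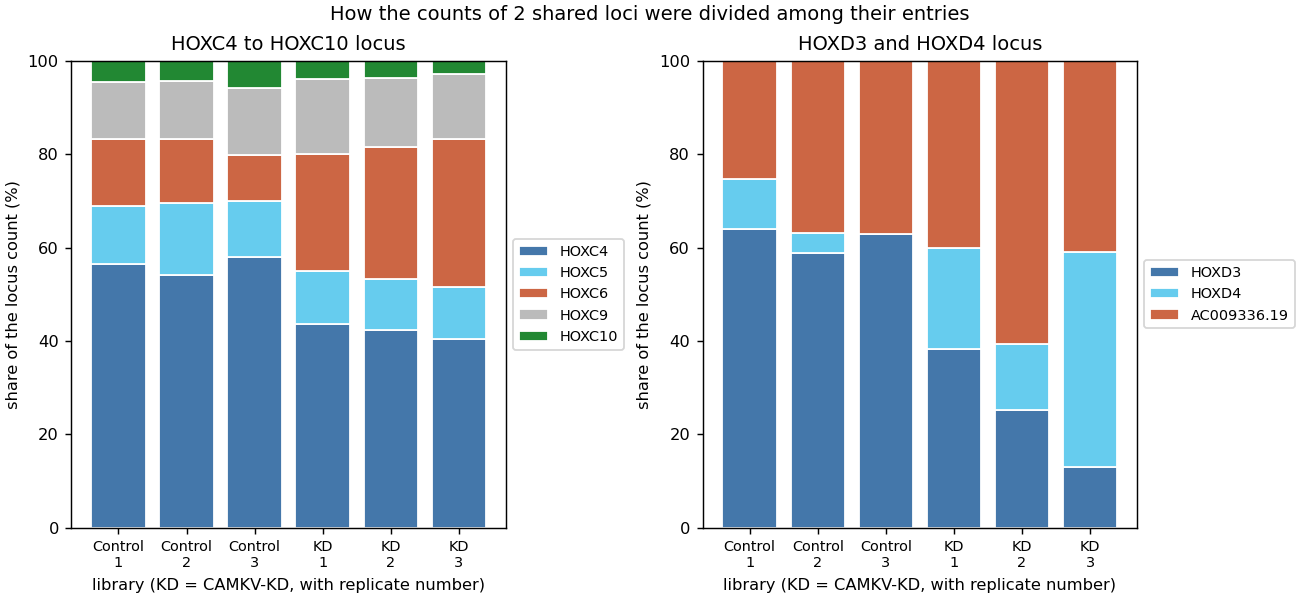
Share of a locus count assigned to each entry, in percent of the locus total, for each of the 6 libraries (KD stands for CAMKV-KD), with the HOXC4 to HOXC10 locus on the left and the HOXD3 and HOXD4 locus on the right. HOXC4 takes more than any other entry in each library on the left but less of the CAMKV-KD bars, where HOXC6 takes more, and HOXD3 shrinks from 61.9% in Control to 25.5% in CAMKV-KD on the right.

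In the HOXD cluster (chromosome 2, 176092891 to 176190907) HOXD4 rose and HOXD8 fell. HOXD4, a 3′ gene of the hindbrain boundary and neck, had 17, 6 and 0 counts in Control and 73, 49 and 117 in CAMKV-KD. In CPM this was 0.702, 0.275 and 0 against 2.95, 2.37 and 5.22, so every CAMKV-KD library was several times above the highest Control library. HOXD4 passed the low-count filter only through its CAMKV-KD libraries, since Control 2 and Control 3 lay below the minimum count of 10. Its place among the genes tested thus depended on the group where it was high. The fitted log2 fold change was 3.39 ± 0.95 (adjusted p = 0.0417 by edgeR), and with so few Control counts its size is loosely fixed. It stayed between 2.82 and 4.63 with any library left out, but the call was lost without Control 2 or without any 1 of the CAMKV-KD libraries (adjusted p up to 0.122). HOXD8, a gene of trunk levels, had 21.1, 24.0 and 25.8 CPM in Control and 17.7, 15.4 and 17.4 in CAMKV-KD. The groups did not overlap, and CAMKV-KD was at 71.3% of Control (-0.49 ± 0.11, adjusted p = 0.0197). The call was lost without Control 2, Control 3, CAMKV-KD 2 or CAMKV-KD 3 (-0.56 to -0.42, adjusted p up to 0.0604).

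HOXD3 and HOXD4 share a locus identifier with AC009336.19, an entry known here only by its clone name, and most of HOXD4's exon bases (80.5%) and of HOXD3's (62.2%) lie inside a further transcript unit on the same strand. Summed over this locus, the level was 6.52, 6.45 and 6.64 CPM in Control and 13.7, 16.7 and 11.4 in CAMKV-KD. The libraries of the groups stood far apart, and the locus sum rose (log2 fold change 1.09 ± 0.16, adjusted p = 0.00449 by edgeR). It stayed called with any library left out (0.94 to 1.21). AC009336.19 had 40, 52 and 55 counts in Control and 135, 209 and 104 in CAMKV-KD and rose as well (1.63 ± 0.36, adjusted p = 0.0202), though not without Control 1, 2 or 3 (1.22 to 1.84, adjusted p up to 0.0642). HOXD3, active in neck and axial skeleton formation, had 4.17, 3.81 and 4.17 CPM in Control and 5.21, 4.21 and 1.47 in CAMKV-KD (-0.16 ± 0.46, adjusted p = 0.825). CAMKV-KD 3 held the lowest HOXD3 and the highest HOXD4 of all 6 libraries. The share of HOXD4 in the locus was 5.00% ± 5.42 in Control and 27.3% ± 16.7 in CAMKV-KD (SD, n = 3, exact permutation p = 0.1). That p adds no separate support, since HOXD4 was picked for its call in the same libraries. The locus as a whole was therefore measured more firmly than its division between HOXD3 and HOXD4.

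HOXD13 had 55.2, 52.1 and 51.7 CPM in Control and 58.5, 58.6 and 57.9 in CAMKV-KD. All CAMKV-KD libraries were above all Control libraries by a small margin, and the gene was not called (log2 fold change 0.14 ± 0.045, adjusted p = 0.0621 by edgeR). It was called when libraries were scaled by their totals and under DESeq2. HOXD9, a 5′ gene of limb and lumbar levels, had 15.3, 16.4 and 15.1 CPM in Control and 15.5, 16.4 and 16.9 in CAMKV-KD, with overlapping groups (0.059 ± 0.077, adjusted p = 0.600). HOXD1, the first gene of the cluster, had 18, 11 and 8 counts in Control and 23, 3 and 6 in CAMKV-KD (-0.23 ± 0.72, adjusted p = 0.834). Antisense transcripts cover 58.1% of its exon bases.

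HOXD10, which specifies lumbar motor neurons in the mouse, had 33, 24 and 20 counts in Control and 30, 22 and 59 in CAMKV-KD. HOXD11, a gene of forearm and kidney, had 26, 14 and 24 and then 24, 37 and 19. They share a locus identifier, and their sum was not called (log2 fold change 0.47 ± 0.23, adjusted p = 0.173 by edgeR), nor was HOXD10 (0.54 ± 0.41, adjusted p = 0.367) or HOXD11 (0.36 ± 0.38, adjusted p = 0.517). HOXD12 had 15, 11 and 0 counts in Control and 17, 15 and 29 in CAMKV-KD, which did not overlap in CPM, and it was not called (1.24 ± 0.91, adjusted p = 0.346). EVX2, the homeobox gene that ends the HOXD cluster beyond HOXD13, had 11, 15 and 9 counts in Control and 22, 37 and 27 in CAMKV-KD. It rose (1.32 ± 0.36, adjusted p = 0.0396), but kept its call in 1 of 6 fits with a library left out, that without CAMKV-KD 1 (1.02 to 1.57, adjusted p up to 0.115). EVX1, its counterpart beside HOXA13, had 0 to 5 counts in every library and was not tested.

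In the HOXA cluster (chromosome 7, from HOXA2 at 27100354 to HOXA13 at 27200106) HOXA7 and HOXA9 rose. HOXA7, a gene of thoracic levels, had 15.9, 10.6 and 11.4 CPM in Control and 18.4, 21.3 and 21.5 in CAMKV-KD. The groups did not overlap, with Control 1 closest to the knockdown values (log2 fold change 0.69 ± 0.18, adjusted p = 0.0331 by edgeR). Only without Control 1 did it stay called when a library was left out (0.58 to 0.89, adjusted p up to 0.0955 without the others). Of its exon bases, 62.5% overlap the antisense gene HOXA-AS3, which was not analysed here, and since the strand setting is not given in the sources used here, reads of the pair cannot be told apart. HOXA9, a gene of blood progenitors and the lumbar axis, had 1.94, 2.39 and 1.70 CPM in Control and 4.32, 3.002 and 4.01 in CAMKV-KD. It was 1.88-fold higher without overlap (0.91 ± 0.21, adjusted p = 0.0230), and the call was lost without Control 1, Control 3, CAMKV-KD 1 or CAMKV-KD 3 (0.80 to 1.05, adjusted p up to 0.0727).

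HOXA9 shares a locus identifier with HOXA10 and with the readthrough entry HOXA10-HOXA9. HOXA10, which patterns lumbar vertebrae and the uterus, held most of the locus, with 30.7, 33.1 and 35.0 CPM in Control and 34.7, 31.9 and 35.5 in CAMKV-KD (log2 fold change 0.048 ± 0.077, adjusted p = 0.673 by edgeR). The readthrough entry had 1, 2 and 7 counts in Control and 26, 29 and 4 in CAMKV-KD and was not tested. Summed, the locus was at 32.7, 35.4 and 37.0 CPM and then 40.2, 36.2 and 39.8, with overlapping groups (0.15 ± 0.076, adjusted p = 0.193). HOXA9 made up 5.75% ± 1.06 of it in Control and 9.72% ± 1.29 in CAMKV-KD (SD, n = 3, exact permutation p = 0.1). Here too the gene was picked for its call in the same libraries, so the p adds no separate support.

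HOXA11, of limb and uterus, had 18.5, 16.3 and 19.4 CPM in Control and 18.02, 16.8 and 18.1 in CAMKV-KD (log2 fold change -0.037 ± 0.093, adjusted p = 0.792 by edgeR). HOXA13, the gene of hand, foot and genital formation, had 19.5, 15.9 and 19.5 CPM in Control and 11.5, 9.25 and 21.8 in CAMKV-KD. CAMKV-KD 3 stood above all Control libraries and the other 2 knockdown libraries below them, so the groups overlapped (-0.37 ± 0.34, adjusted p = 0.456). Without CAMKV-KD 3 the gene was called lower (-0.82, adjusted p = 0.0289).

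HOXA3, HOXA4, HOXA5 and HOXA6 share another locus identifier, and for HOXA5, HOXA6 and the locus sum CAMKV-KD 2 stood apart. HOXA5, a gene of the brachial and lung region, had 6.61, 3.67 and 8.21 CPM in Control and 2.87, 19.2 and 2.18 in CAMKV-KD. CAMKV-KD 2 was the highest of all 6 libraries, and CAMKV-KD 1 and CAMKV-KD 3 were the lowest. The log2 fold change was 0.39 ± 0.92 (adjusted p = 0.782 by edgeR), and -1.28 without CAMKV-KD 2, where it was not called either (adjusted p = 0.0883). HOXA6 showed its highest count in the same library, with 11, 9 and 8 in Control and 9, 39 and 7 in CAMKV-KD. HOXA3, a gene of the pharyngeal arches, had 71, 41 and 56 counts in Control and 60, 36 and 67 in CAMKV-KD (-0.034 ± 0.27, adjusted p = 0.938). HOXA4 had 19, 21 and 12 and then 7, 7 and 16 (-0.77 ± 0.44, adjusted p = 0.234). Summed, the locus had a log2 fold change of 0.27 ± 0.61 (adjusted p = 0.770), and -0.68 without CAMKV-KD 2.

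**Figure D4:**
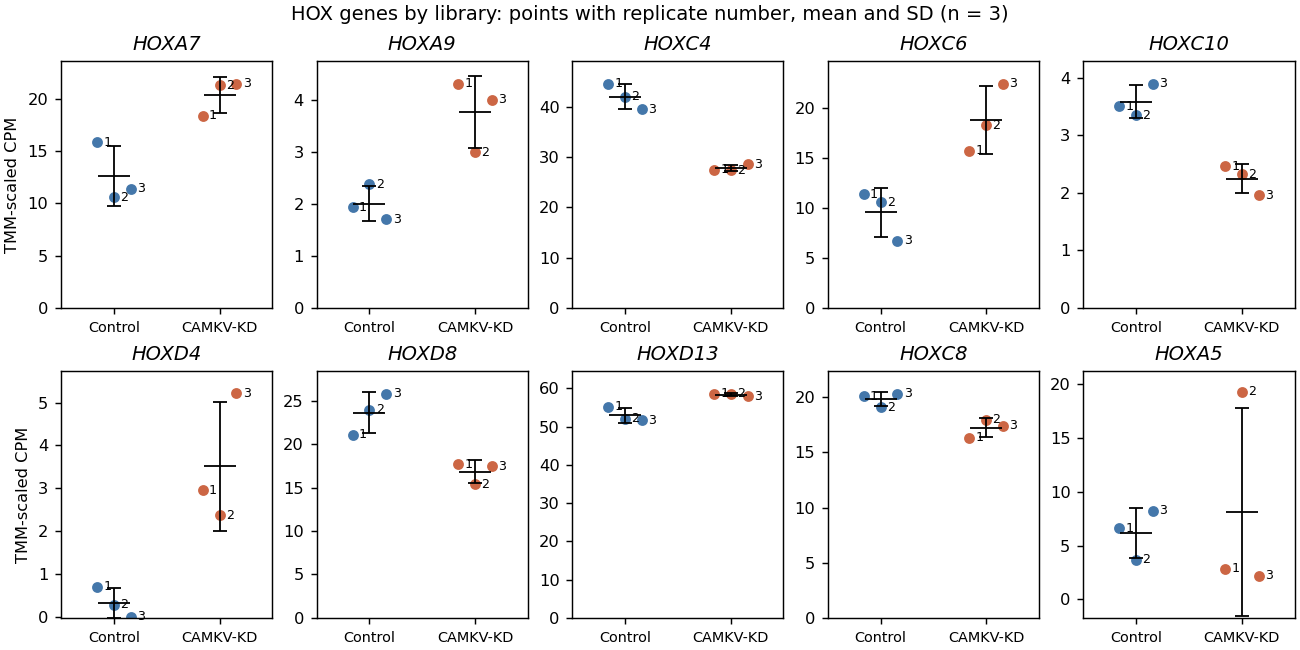
TMM-scaled CPM in each library (points with replicate number) for the 7 HOX genes called and for HOXD13, HOXC8 and HOXA5, with the group mean and SD as bars (n = 3) and a separate y axis for each gene. In the 7 called genes and in HOXD13 and HOXC8 the Control and CAMKV-KD points do not overlap, while in HOXA5 CAMKV-KD 2 at 19.2 CPM lies far above the other 5 libraries.

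The TALE cofactors of the HOX proteins, and PBXIP1 listed with them, were all expressed, and most were not called. Of 10 listed, 1 was called higher and 2 lower, a share of 30% beside 36.3% of all genes, with a median log2 fold change of -0.11. The 1 called higher was PBXIP1, and no PBX, MEIS or PKNOX gene was called higher. PKNOX2 had 6.28, 5.41 and 5.52 CPM in Control and 2.18, 1.69 and 1.87 in CAMKV-KD and fell without overlap (-1.58 ± 0.15, adjusted p = 0.00117 by edgeR). PBX3 fell slightly (-0.19 ± 0.047, adjusted p = 0.0268), with its call lost in every fit with a library left out other than that without CAMKV-KD 1 (-0.22 to -0.16, adjusted p up to 0.0811) and also with library totals (-0.13, adjusted p = 0.0761). PBXIP1, whose protein keeps PBX from binding DNA, rose (0.44 ± 0.064, adjusted p = 0.00460). PBX2 (-0.38 ± 0.52), MEIS1 (0.12 ± 0.28) and MEIS2 (-0.043 ± 0.15) were not called (adjusted p = 0.615, 0.769 and 0.852).

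Among 24 genes of retinoic acid handling and reception, 17 were tested, 3 were called higher and 4 lower, a share of 41.2% beside 36.3% of all genes, and the median log2 fold change was -0.057. The 4 that fell include a carrier, a degrading enzyme and a receptor. CRABP2, which carries retinoic acid to its nuclear receptor, had 128.9, 120.6 and 121.1 CPM in Control and 49.98, 52.7 and 51.8 in CAMKV-KD. It fell to less than any Control value in all 3 libraries (log2 fold change -1.26 ± 0.046, adjusted p = 0.000112 by edgeR). CYP26B1, which degrades retinoic acid, fell by 1.64 ± 0.19 on the log2 scale (adjusted p = 0.00236) and the receptor RARB by 0.97 ± 0.12 (adjusted p = 0.00262). RDH10, which makes retinaldehyde, rose (0.41 ± 0.087, adjusted p = 0.0173), as did the receptor RXRB (0.34 ± 0.054, adjusted p = 0.00654) and CRABP1 (0.31 ± 0.064, adjusted p = 0.0153). RDH10 lost its call without Control 2, Control 3, CAMKV-KD 1 or CAMKV-KD 3 (0.35 to 0.46, adjusted p up to 0.0566).

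All 34 listed Polycomb, Trithorax and related chromatin regulators were tested, with a median log2 fold change of 0.25. Of these, 15 were called higher and 2 lower, which is 50% of the list beside 36.3% of all genes tested. Over all genes 17.3% were called higher and 19.0% lower. The list was not set beside genes of similar counts. EZH2, the methyltransferase of Polycomb repressive complex PRC2, had 45.2, 38.5 and 38.7 CPM in Control and 121.8, 110.2 and 137.8 in CAMKV-KD. Every knockdown library was more than double any Control library (log2 fold change 1.60 ± 0.11, adjusted p = 0.000508 by edgeR). The other PRC2 core genes, named after their values were seen, moved less, EED by 0.29 ± 0.058 (adjusted p = 0.0141) and SUZ12 by 0.025 ± 0.034 (adjusted p = 0.621, not called). EED lost its call without CAMKV-KD 1 (adjusted p = 0.0501). RING1, a ubiquitin ligase of PRC1, rose (0.55 ± 0.076, adjusted p = 0.00391), as did PHF19, which brings PRC2 to chromatin (0.54 ± 0.052, adjusted p = 0.00126). CBX2, a reader in PRC1, also passed (0.47 ± 0.14, adjusted p = 0.0498), but with a library left out only where that was CAMKV-KD 2 (0.40 to 0.60, adjusted p up to 0.135). Its call was also lost with DESeq2 size factors (adjusted p = 0.0520), upper-quartile scaling (0.0596), no low-count filter (0.0572) and limma-voom (0.0517).

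MLLT3, a reader in the elongation complex that works with KMT2A and DOT1L, fell (log2 fold change -0.69 ± 0.058, adjusted p = 0.000848 by edgeR). PSIP1, which tethers KMT2A and menin to chromatin, fell by 0.088 ± 0.026 on the log2 scale (adjusted p = 0.0493) and kept that call in 1 of 6 fits with a library left out (-0.11 to -0.078, adjusted p up to 0.132), that without Control 3. It lost the call with library totals (-0.028, adjusted p = 0.421), no low-count filter (adjusted p = 0.0670) and limma-voom (adjusted p = 0.0526). The genes called higher were not all of Polycomb. KMT2B (0.30 ± 0.051, adjusted p = 0.00783 by edgeR), ASH2L (0.15 ± 0.039, adjusted p = 0.0304) and KDM6A (0.33 ± 0.059, adjusted p = 0.00905) were among them. The Polycomb genes PHC1 (-0.46 ± 0.19, adjusted p = 0.119) and PCGF2 (-0.20 ± 0.11, adjusted p = 0.217) leaned down and were not called. Most of the called chromatin genes were thus higher in CAMKV-KD, at the same time as 4 HOX genes were higher and 3 lower. No link between them was tested.

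**Figure D5:**
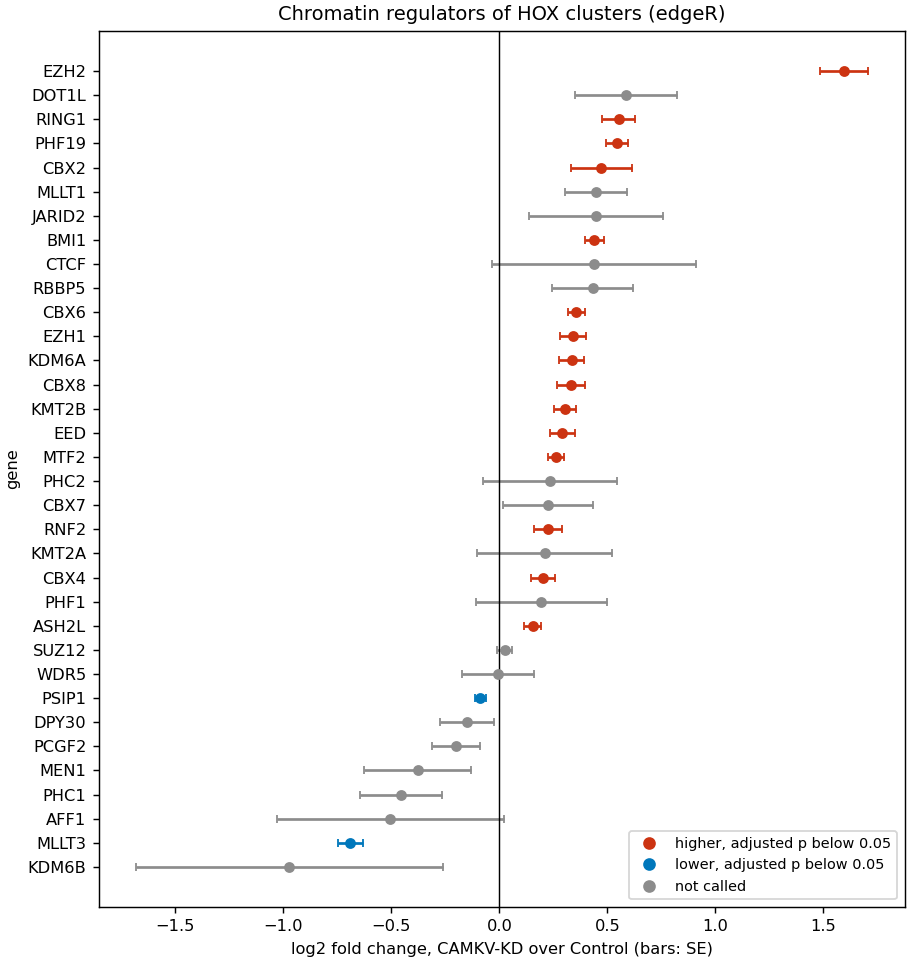
Log2 fold change of CAMKV-KD over Control for the 34 listed chromatin regulators, sorted by size, from edgeR with bars of 1 SE, red and blue marking genes called higher and lower. EZH2 at 1.60 stands apart from the rest, MLLT3 at -0.69 is the lowest called gene, and most red points lie between 0.15 and 0.55.

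Of 11 genes known to act upstream of HOX clusters in embryos, 5 were tested, 2 were called higher and 1 lower, a share of 60% beside 36.3% of all genes. CDX1, a homeobox activator of trunk HOX genes, had 37, 25 and 23 counts in Control and 3, 0 and 0 in CAMKV-KD. It passed the low-count filter only through Control, the group where it was high. The 85 Control counts against 3 give a ratio of 28.1 (exact 95% interval 9.31 to 139.2, counting error only), and the fall was called (adjusted p = 0.00864 by edgeR). GBX2, of the midbrain and hindbrain border, had 8.01, 7.62 and 6.95 CPM in Control and 13.5, 15.4 and 13.7 in CAMKV-KD and rose (log2 fold change 0.91 ± 0.10, adjusted p = 0.00209). CDX4, FGF8 and TBXT, genes of the tail bud, had no count in any library.

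Of 20 genes that border the clusters, 15 were tested, and 3 were called in each direction, a share of 40% beside 36.3% of all genes. EVX2, described above, had the largest change. SNX11 beside HOXB rose (log2 fold change 0.42 ± 0.11, adjusted p = 0.0309 by edgeR) and so did CBX5 beside HOXC, which encodes HP1 alpha (0.35 ± 0.058, adjusted p = 0.00766). HNRNPA1, a splicing factor gene next to CBX5, fell (-0.27 ± 0.024, adjusted p = 0.001002), as did ATP5MC3 near HOXD (-0.15 ± 0.037, adjusted p = 0.0289) and CBX1 near HOXB (-0.11 ± 0.030, adjusted p = 0.0434). SNX11 stayed called in 2 of 6 fits with a library left out, those without Control 3 and CAMKV-KD 3 (0.36 to 0.50, adjusted p up to 0.0947), ATP5MC3 in none (-0.16 to -0.12, adjusted p up to 0.0803) and CBX1 in 1, that without Control 3 (-0.13 to -0.090, adjusted p up to 0.119). With library totals ATP5MC3 (-0.087, adjusted p = 0.127) and CBX1 (-0.047, adjusted p = 0.251) were not called, nor was CBX1 with no low-count filter (adjusted p = 0.0594).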

How the data were processed

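The authors deposited 1 table of raw counts per gene, in whole numbers and without normalization, for the 6 libraries. Per the labels' protocols, TRIzol was used for extraction and 100 ng of total RNA went into each SMARTer mRNA-Seq library. Per the submitters' processing notes, FastQC 0.11.2, HISAT2 2.1.0 and StringTie 1.3.5 were used with genome build GRCh38.p13, and the series' design text names DESeq2 1.28.1. Strand setting, annotation release and the route from StringTie to counts: not given in the sources used here. Entries that share a locus identifier can share reads.

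Counts were filtered with filterByExpr (minimum count 10), scaled by TMM and tested in edgeR 4.0.16 (R 4.3.3) with the quasi-likelihood F-test, group as the only term and Benjamini-Hochberg adjustment over 13366 genes. The script was tested on simulated data. Alternatives were other scalings, no filter, DESeq2 1.42.0, limma-voom (limma 3.58.1), a replicate block, each library left out and coding length in place of exon length. Where a symbol had several entries, the one with the highest mean count was used. A chi-square statistic between pairs of libraries, over genes summing to 10 counts or more, was 41.5 to 52.1 per degree of freedom inside a group and 104.7 to 119.2 across groups. None were identical, so all were kept. A floor of 3 counts is 0.121 to 0.145 CPM, and no molecular identifiers are named.

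The members and gene lists were chosen with earlier results of these data known. HOX members were named or counted. From each companion list, up to 4 called genes with the largest change in each direction were named, with PBX2, PBX3, MEIS1, MEIS2, EVX1 and EVX2 added. EED, SUZ12, KMT2B, ASH2L, KDM6A, PHC1, PCGF2, CALCOCO2 and SKAP1 were named after their values were seen. So were the markers and the genes given as having no count. Exon lengths and positions came from GENCODE release 29, promoters from RefSeq, and TBXT and ATP5MC3 were matched through older symbols. Protein sequences and 27 listed noncoding RNAs of the clusters were not analysed here. A few genes that the naming rule covers are not reported here.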

Additional observations from a re-analysis of the deposited data

How the results depend on the processing

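HOXC4, EZH2, CRABP2 and the summed HOXD3 and HOXD4 locus kept direction and call under every scaling, filter, test and left-out library tried. Shared replicate numbers did not pair the libraries (correlations of deviations -0.0074, -0.058 and -0.029), and with the replicate block edgeR called 0 HOX members higher and 1 lower, 10 chromatin regulators and 3 cluster neighbours. With 1 library left out, calls ranged from 0 to 3 HOX members higher, 1 to 3 lower and 2 to 4 cluster neighbours. Over all genes 4857 were called, 4590 to 5699 under the other scalings, filter and tests, 3337 with the block and 3854 to 3980 with a library left out. Scaling by library totals moved the median of all genes to 0.064 and the split to 2812 higher and 2175 lower. It was 2130 and 2698 under upper-quartile scaling. By coding length the HOXA and HOXC shares were 29.2% and 39.4% in Control, the HOXC share 35.0% in CAMKV-KD, and the HOXD shares 31.2% and 31.9%.

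Log2 fold changes that turned direction, none of them called in either fit, were as follows, and the cause was not tested. With library totals HOXA3 was 0.025, HOXA11 0.022 and MEIS2 0.016. With upper-quartile scaling HOXC9 was -0.00796 and SUZ12 -0.00166. With limma-voom HOXA5 was -0.29 and the HOXA3 to HOXA6 locus -0.038, and with the block -0.37 and -0.0485. With 1 library left out, HOXA3 ranged from -0.23 to 0.15, HOXA5 from -1.28 to 0.83, their locus from -0.68 to 0.59 and HOXA11 from -0.11 to 0.015. HOXB13 ranged from -0.32 to 0.66, and was not tested without CAMKV-KD 1, and HOXC9 from -0.00043 to 0.039. HOXD1 ranged from -1.35 to 0.17, HOXD3 from -0.52 to 0.22 and HOXD11 from -0.035 to 0.56. PBX2 ranged from -0.81 to 0.10, MEIS1 from -0.038 to 0.40 and MEIS2 from -0.19 to 0.061.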
